A study of Saccharomyces cerevisiae with 16 samples.

Results

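The 30 yeast genes described here encode subunits of the nuclear RNA polymerases, the enzymes that copy nuclear DNA into RNA. They were chosen by name: every gene of Saccharomyces cerevisiae on the arrays whose symbol is RPA, RPB or RPC followed by a number, together with RPO21, RPO26 and RPO31. All 30 were measured by 1 probe set each, out of 5716 probe sets on the array, and none of the 30 probe sets was of the kind marked as matching several transcripts. By the enzyme they belong to, 7 genes encode subunits of polymerase I, 7 of polymerase II and 9 of polymerase III, while 2 are shared by polymerases I and III and 5 by all of the polymerases. RET1 (YOR207C), which encodes the second-largest subunit of polymerase III, does not follow the naming pattern. It was measured beside the 30 and is not counted among them.

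Total RNA from chemostat cultures at steady state had been labelled with biotin and hybridized to 16 Affymetrix arrays, with 2 arrays in each of 8 groups. The groups combine a mutant strain (SCE088) or the reference strain (SCE090), growth on ethanol or on glucose, and growth limited by nitrogen or by that carbon source. Ammonium sulfate was the nitrogen source. The labels do not say which gene is mutated in SCE088, so no targeted gene could be checked, and they give no dilution rate. Whether paired arrays stem from separate cultures is not stated, and the spread behind the p-values may be technical. Nitrogen limitation on ethanol and on glucose, ethanol limitation and glucose limitation name the 4 conditions below.

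Nuclear transcription in yeast is divided between these enzymes. Polymerase I makes the large ribosomal RNA precursor, polymerase II makes messenger RNAs and many small nuclear RNAs, and polymerase III makes transfer RNAs, the 5S ribosomal RNA and other short RNAs. Each enzyme is built on a common plan. The largest and second-largest subunits form the catalytic centre, a pair of subunits related to bacterial alpha forms the assembly platform, a stalk protrudes near the RNA exit, and a small zinc-ribbon subunit serves RNA cleavage. Polymerases I and III also carry built-in counterparts of the initiation factor TFIIF, and polymerase III has a further trimer of subunits for initiation. Since polymerases I and III supply the ribosome, their output in yeast is known to be tied to nutrients and growth rate.

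The values are the authors' background-corrected intensities on a log2 scale, and a difference of 1 is a doubling. Array medians lay between 11.91 and 12.01, and the paired arrays of a group correlated with r of 0.98 to 1.00 across all probe sets, which are not independent replicates. Markers of the conditions behaved by the labels on glucose. DAL5, DAL80, MEP2 and GAP1, which encode a permease, a regulator and transporters of poor nitrogen conditions, were all higher under nitrogen limitation than under glucose limitation, by 3.05, 2.43, 0.68 and 0.26 in the mutant and by 3.36, 2.57, 1.03 and 0.73 in the reference strain. On ethanol the separation was smaller, and 2 of these 4 markers were higher under nitrogen limitation in the mutant and 3 of 4 in the reference strain. Under ethanol limitation 3 of 4 in the mutant and 4 of 4 in the reference strain were already higher than under glucose limitation. The ethanol-use genes ICL1, FBP1 and PCK1 were higher on ethanol than on glucose in both strains and under both limitations, while ADH2 was already high under glucose limitation. MLS1, a further ethanol-use gene, rose under nitrogen against glucose limitation, by 1.62 in the mutant and 1.67 in the reference strain, while the other 4 fell.

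A gene was called when limma's test, adjusted by Benjamini-Hochberg over all 5716 probe sets, gave an adjusted p under 0.05. Differences are given as log2 with their standard error. Fitted over the 12 pairwise comparisons, 7 of the 30 genes were never called, namely RPA43, RPA14, RPO26, RPB2, RPB4, RPO31 and RPC82, and 7 were called once. At the other end, 10 genes were called in 5 or more comparisons, led by RPB9 in 9, RPA12 in 8, and RPB10, RPB8 and RPB7 in 7 each. The same counts were not made over all probe sets. Whether the subunit genes were called more or less often than other genes is therefore not known. Single pairwise comparisons called from 469 to 2787 of all 5716 probe sets, the fewest between nitrogen and ethanol limitation in the reference strain. The most were between nitrogen and glucose limitation in the mutant. The 12 comparisons also share groups of arrays, so they are not 12 separate results. The median range of the 8 group means was 0.38 for the 30 genes and 0.46 over all probe sets, a difference that was not tested. Each comparison was refitted with 1 of its arrays left out in turn, and the genes called in every such fit are named with it below. Any other call was lost without at least 1 array.

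**Figure D1:**
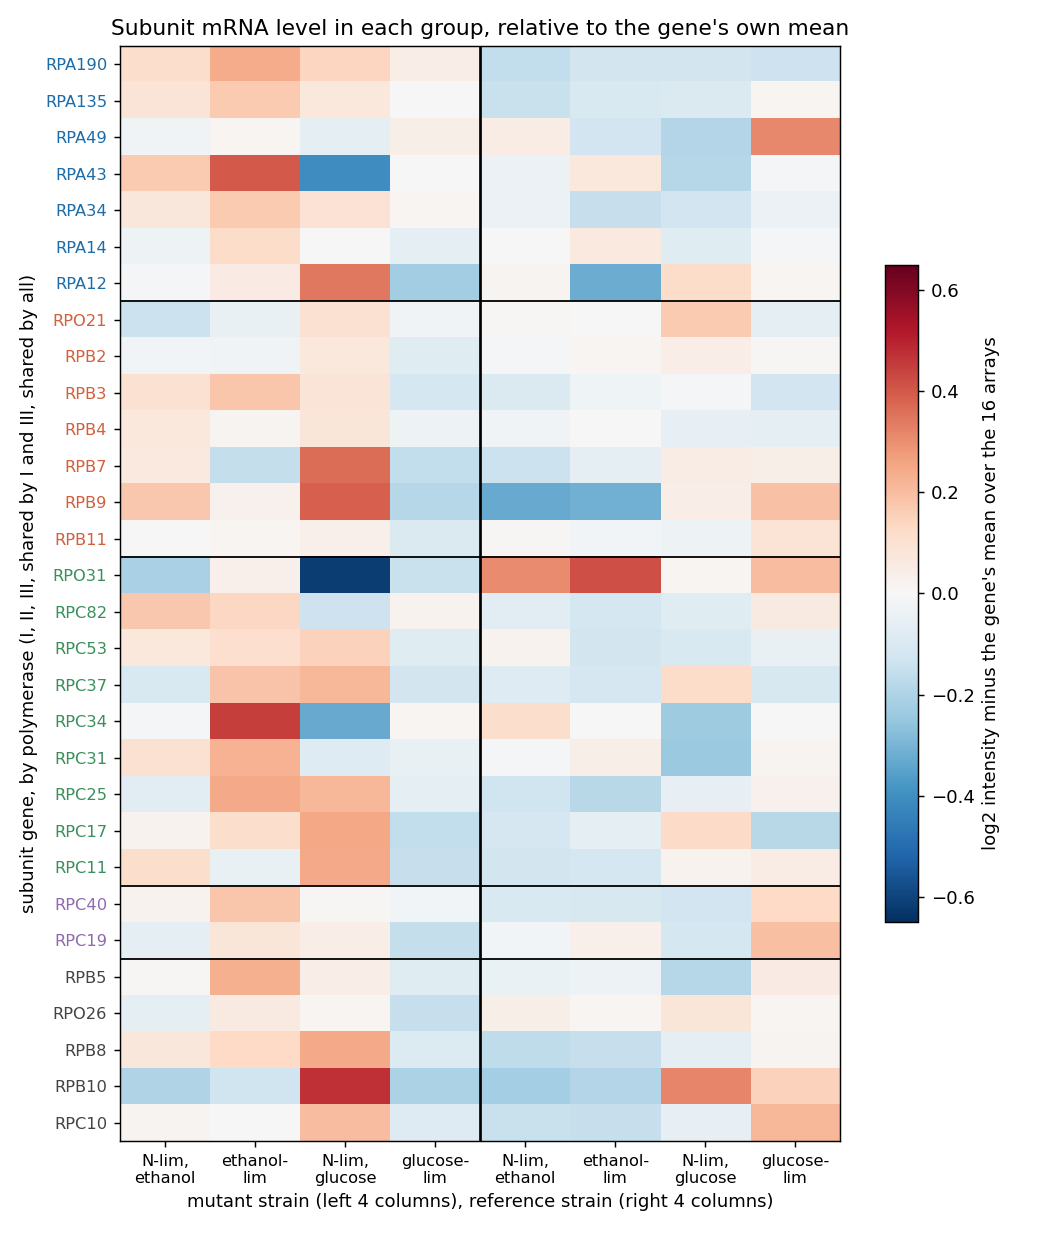
Mean log2 intensity of each of the 30 subunit genes (rows, coloured by polymerase) in the 8 groups (columns, mutant left, reference right), minus the gene's own mean over the 16 arrays. Group means range over 0.14 for RPB4 and RPB2 and over 1.04 for RPO31, and RPB10 is highest under nitrogen limitation on glucose in both strains.

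The catalytic subunits of polymerases I and II were called in few comparisons. RPO21 (YDL140C) and RPB2 (YOR151C), the largest and second-largest subunits of polymerase II, ranged over 0.31 and 0.14 in their group means. RPB2 lay between 13.06 and 13.31 on all 16 arrays and was called nowhere. RPO21 was called in 1 comparison, lower on ethanol than on glucose under nitrogen limitation in the mutant, with 13.50 and 13.50 on ethanol against 13.69 and 13.78 on glucose (difference -0.24 ± 0.09, adjusted p 0.0464). The corresponding polymerase I genes, RPA190 (YOR341W) and RPA135 (YPR010C), were each called in the mutant against the reference strain under ethanol limitation and nowhere else. RPA190 had 13.14 and 13.11 in the mutant and 12.67 and 12.86 in the reference strain there, a difference of 0.36 ± 0.11 (adjusted p 0.0352). RPA135 had 13.17 and 13.12 in the mutant and 12.80 and 12.94 in the reference strain (0.27 ± 0.09, adjusted p 0.0426). The groups of arrays did not overlap in any of these comparisons, which was required for showing them in full. The call of RPO21 was nevertheless lost whichever of the 4 arrays was left out, and those of RPA190 and RPA135 were kept only without the reference array 2. In polymerase III, RET1 fell under nitrogen limitation against glucose limitation in the reference strain by 0.30 ± 0.08 (adjusted p 0.00865), with a difference of -0.20 ± 0.08 in the mutant that was not called (adjusted p 0.0547).

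RPO31 (YOR116C), the largest subunit of polymerase III, and RPA43 (YOR340C), a stalk subunit of polymerase I, had the widest group means and the least repeatable arrays. Their pooled standard deviations within groups were 0.34 and 0.36, against 0.03 for RPB10 and 0.06 for RPB9. In the mutant RPO31 had 12.69 and 12.27 under nitrogen limitation on ethanol, 12.71 and 12.73 under ethanol limitation, 12.12 and 12.02 under nitrogen limitation on glucose, and 12.60 and 12.48 under glucose limitation. On the reference arrays it had 13.11 and 12.89, 13.58 and 12.63, 12.88 and 12.52, and 13.28 and 12.50 in the same order of conditions, each pair in the order of the arrays' descriptions. The array described as 01 was thus the higher one in all 4 reference groups, and the gap was as large as 0.95. RPA43 ran the other way, with the array described as 01 lower in all 4 reference groups, at 11.79 against 12.60 under nitrogen limitation on ethanol and 11.60 against 12.50 under nitrogen limitation on glucose. Replicate differences over all probe sets also ran together in the reference strain, with correlations of 0.35 to 0.68 between its groups when arrays were numbered by description, against 0.02 to 0.29 in the mutant. With a replicate block for each strain, chosen after seeing this, RPO31 was lower in the mutant than in the reference strain under nitrogen limitation on glucose (-0.63 ± 0.17, adjusted p 0.0225) and on ethanol (-0.52 ± 0.17, adjusted p 0.0484), and lower under nitrogen than under glucose limitation in the mutant (-0.47 ± 0.17, adjusted p 0.0413). Without the block none of these was called. Of the 7 genes never called without the block, 6 were called in at least 1 pairwise comparison with it, RPC82 in 6, and RPA43 stayed uncalled. The block also raised the calls over all probe sets in every comparison. Between the strains under nitrogen limitation on glucose, for example, it gave 2062 in place of 1206. How many of all probe sets gained a first call was not counted, so these gains are not particular to the subunit genes by any test.

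Nitrogen limitation was compared with glucose limitation for growth on glucose. In the mutant many subunit mRNAs were more abundant under nitrogen limitation: 13 of 30 genes rose and 1 fell, where 25.2% of all probe sets were higher and 23.6% lower. They included 5 of 9 polymerase III genes, 3 of 7 polymerase II genes, 3 of the 5 subunits common to all of the polymerases, 1 of 7 polymerase I genes and 1 of the 2 shared by I and III. The reference strain had 2 genes that rose and 6 that fell, where 21.4% of all probe sets were higher and 22.2% lower. The median difference of the 30 genes was 0.13 in the mutant and -0.08 in the reference strain, beside 0.00 over all probe sets in both strains. Both comparisons used all 16 arrays in 1 fit. In the mutant 7 genes were called without the glucose-limitation array 1 and 7 without the nitrogen-limitation array 2, while 7 genes (RPA12, RPB7, RPB8, RPB9, RPB10, RPC10 and RPC11) were called whichever of the 4 arrays was left out. For the reference strain the split of 2 higher and 6 lower was 4 and 6 with quantile normalization and 1 and 7 with median centring. RPA49, RPC10, RPC19 and RPC40 were called there whichever array was left out. In that strain 13 genes were called with the block for each strain, and 2 when only the 4 arrays compared were fitted. Fitted in that way, the mutant had 18 genes called.

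**Figure D2:**
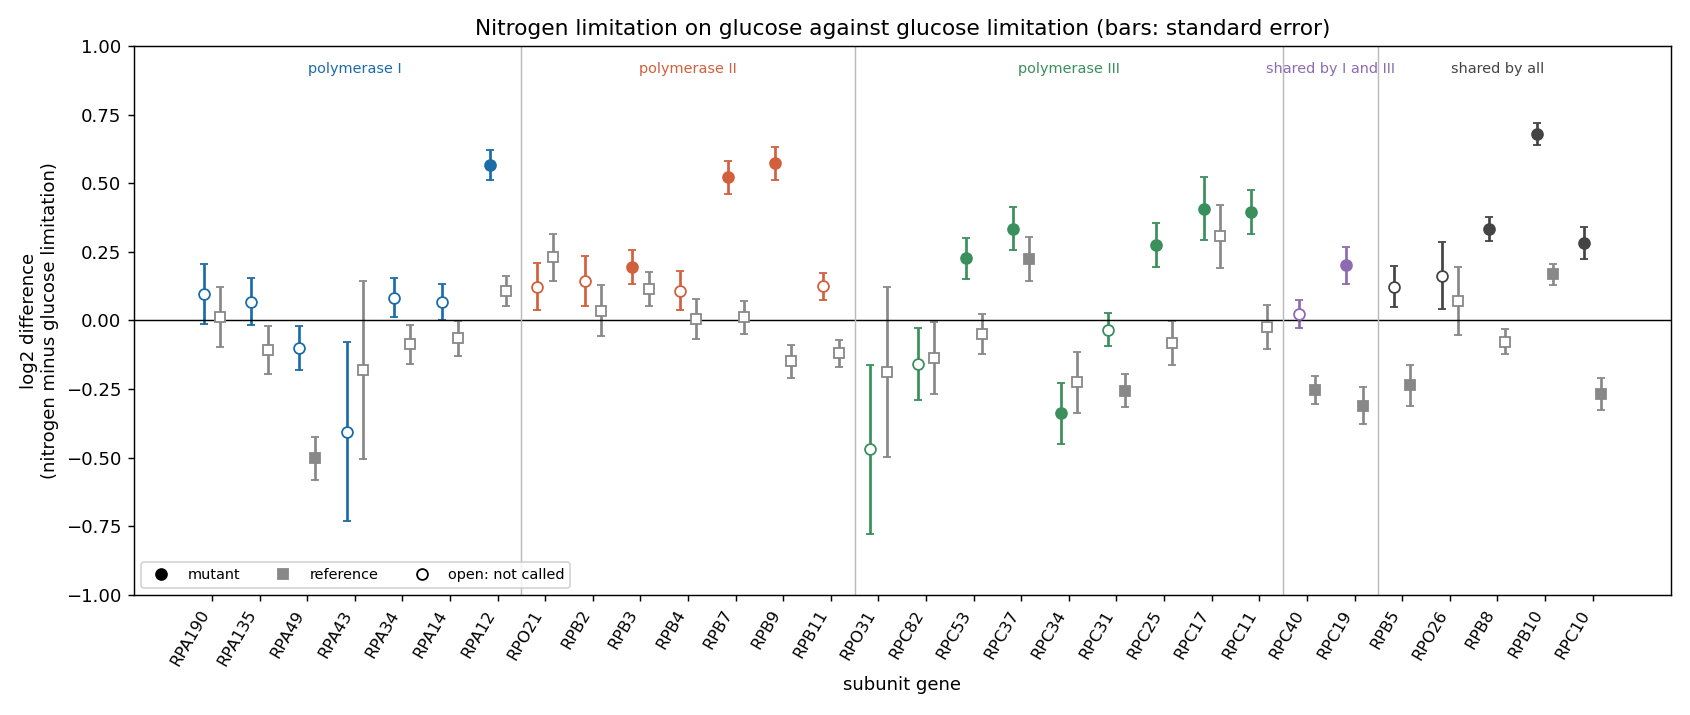
Log2 difference between nitrogen limitation on glucose and glucose limitation for each subunit gene, with its standard error, in the mutant (coloured circles) and the reference strain (grey squares), with filled symbols for called genes. RPB10 stands highest in the mutant at 0.68 and RPA49 lowest among the called genes of the reference strain at -0.50.

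RPB10 (YOR210W) is a small zinc-binding subunit common to all of the polymerases, next to the alpha-like pair in the assembly platform. It had 12.92 and 12.93 under nitrogen limitation and 12.27 and 12.23 under glucose limitation in the mutant. Its difference there was 0.68 ± 0.04 (adjusted p 2.24e-07), a fold of 1.60. The reference strain had 12.81 and 12.73 under nitrogen limitation and 12.57 and 12.63 under glucose limitation (0.17 ± 0.04, adjusted p 0.00589). RPB10 was therefore higher under nitrogen limitation in both strains, with no overlap between the groups, and its level under glucose limitation was lower in the mutant than in the reference strain. RPC10 (YHR143W-A), the other very small zinc-binding subunit common to all of the polymerases, moved in opposite directions. It had 12.70 and 12.80 under nitrogen limitation and 12.42 and 12.51 under glucose limitation in the mutant, a rise of 0.28 ± 0.06 (adjusted p 0.0024). The reference strain showed the opposite, with 12.51 and 12.49 under nitrogen limitation and 12.77 and 12.77 under glucose limitation, a fall of 0.27 ± 0.06 (adjusted p 0.00375).

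The zinc-ribbon subunits of the 3 enzymes are related in structure and each assists cleavage of the nascent RNA: RPA12 (YJR063W) in polymerase I, RPB9 (YGL070C) in polymerase II and RPC11 (YDR045C) in polymerase III. This grouping was made with the values known. All 3 rose in the mutant. RPA12 had 12.01 and 12.09 under nitrogen limitation against 11.45 and 11.52 under glucose limitation (0.57 ± 0.06, adjusted p 1.38e-05). RPB9 had 12.04 and 12.15 against 11.50 and 11.55 (0.57 ± 0.06, adjusted p 2.68e-05). RPC11 had 12.43 and 12.48 against 12.03 and 12.09 in the same groups (0.40 ± 0.08, adjusted p 0.00216). No pair of groups overlapped, which was required for showing the genes in full. None of the 3 was called in the reference strain, where the differences between nitrogen and glucose limitation were 0.11 ± 0.06 for RPA12, -0.15 ± 0.06 for RPB9 and -0.02 ± 0.08 for RPC11.

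The stalk pairs differed between the enzymes. RPB7 (YDR404C), an RNA-binding subunit of the polymerase II stalk, rose by 0.52 ± 0.06 in the mutant (adjusted p 4.91e-05), with 12.67 and 12.60 under nitrogen limitation against 12.09 and 12.13 under glucose limitation. Its partner RPB4 (YJL140W) had a difference of 0.11 ± 0.07 and was not called. In polymerase III, RPC25 (YKL144C) and RPC17 (YJL011C), the counterparts of RPB7 and RPB4, rose by 0.27 ± 0.08 (adjusted p 0.0167) and 0.41 ± 0.11 (adjusted p 0.0133). In polymerase I neither RPA43 (-0.41 ± 0.32) nor RPA14 (0.07 ± 0.07), the corresponding pair, was called.

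Of the TFIIF-like pairs, RPC37 (YKR025W) and RPC53 (YDL150W) of polymerase III rose in the mutant by 0.33 ± 0.08 (adjusted p 0.00565) and 0.23 ± 0.07 (adjusted p 0.0267). RPC34 (YNR003C), a subunit of the initiation trimer of polymerase III, was the 1 gene that fell. It had 10.80 and 10.89 under nitrogen limitation against 11.17 and 11.21 under glucose limitation in the mutant (-0.34 ± 0.11, adjusted p 0.0271). RPA49 (YNL248C), a TFIIF-like subunit of polymerase I, gave the largest fall in the reference strain, with 11.42 and 11.38 under nitrogen limitation and 11.92 and 11.88 under glucose limitation (-0.50 ± 0.08, adjusted p 0.000459). In the mutant RPA49 had 11.52 and 11.53 under nitrogen limitation and 11.64 and 11.61 under glucose limitation, a difference of -0.10 ± 0.08 that was not called. The alpha-like pair of polymerases I and III, RPC40 (YPR110C) and RPC19 (YNL113W), fell together in the reference strain, by 0.25 ± 0.05 (adjusted p 0.0024) and 0.31 ± 0.07 (adjusted p 0.00409). In the mutant RPC19 rose by 0.20 ± 0.07 (adjusted p 0.0336) and RPC40 had a difference of 0.02 ± 0.05. The polymerase II counterparts of this pair, RPB3 (YIL021W) and RPB11 (YOL005C), were not called in the reference strain, and RPB3 rose by 0.20 ± 0.06 in the mutant (adjusted p 0.0233).

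The difference between the strains in this response was itself tested. For 12 of the 30 genes the difference between nitrogen and glucose limitation was larger in the mutant than in the reference strain and for none smaller, by adjusted or unadjusted p, where 10.2% of all probe sets were called larger and 10.5% smaller. The zinc-ribbon subunits RPB9 (0.72 ± 0.09, adjusted p 0.000281), RPA12 (0.46 ± 0.08, adjusted p 0.0024) and RPC11 (0.42 ± 0.11, adjusted p 0.0261) were all among them. So were 4 of the 5 subunits common to all of the polymerases, RPC10, RPB10, RPB8 and RPB5, with RPO26 as the exception. RPB8 (YOR224C), which had 13.53 and 13.59 under nitrogen limitation against 13.19 and 13.26 under glucose limitation in the mutant, and 13.22 and 13.28 against 13.35 and 13.31 in the reference strain, differed by 0.41 ± 0.06 (adjusted p 0.00139). Both members of the pair shared by I and III were called, RPC19 at 0.51 ± 0.10 and RPC40 at 0.28 ± 0.07. By enzyme, 2 of 7 polymerase I genes, 3 of 7 polymerase II genes and 1 of 9 polymerase III genes were called. Without the mutant glucose-limitation array 1, or either mutant nitrogen-limitation array on glucose, 7 genes were called. RPA12, RPB7, RPB8, RPB9, RPB10, RPC10 and RPC19 were called whichever of the 8 arrays was left out.

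Gene length moved with this result. By the lengths in the RefSeq table of assembly R64, 10 of the 30 genes are at most 500 bases long, and 8 of these 10 were called, against 2 of 11 genes between 500 and 1000 bases, 2 of 6 between 1000 and 4000 bases, and 0 of 3 above 4000 bases. Over all probe sets, the median difference between the strains was 0.10 for genes of at most 500 bases, 0.07 between 500 and 1000 bases, -0.03 between 1000 and 4000 bases and -0.16 above 4000 bases. The median of the 10 short subunit genes was 0.44. In the same order of length, 13.7%, 15.4%, 7.41% and 3.19% of all probe sets were called larger in the mutant. The part of length in the calls was not tested.

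**Figure D3:**
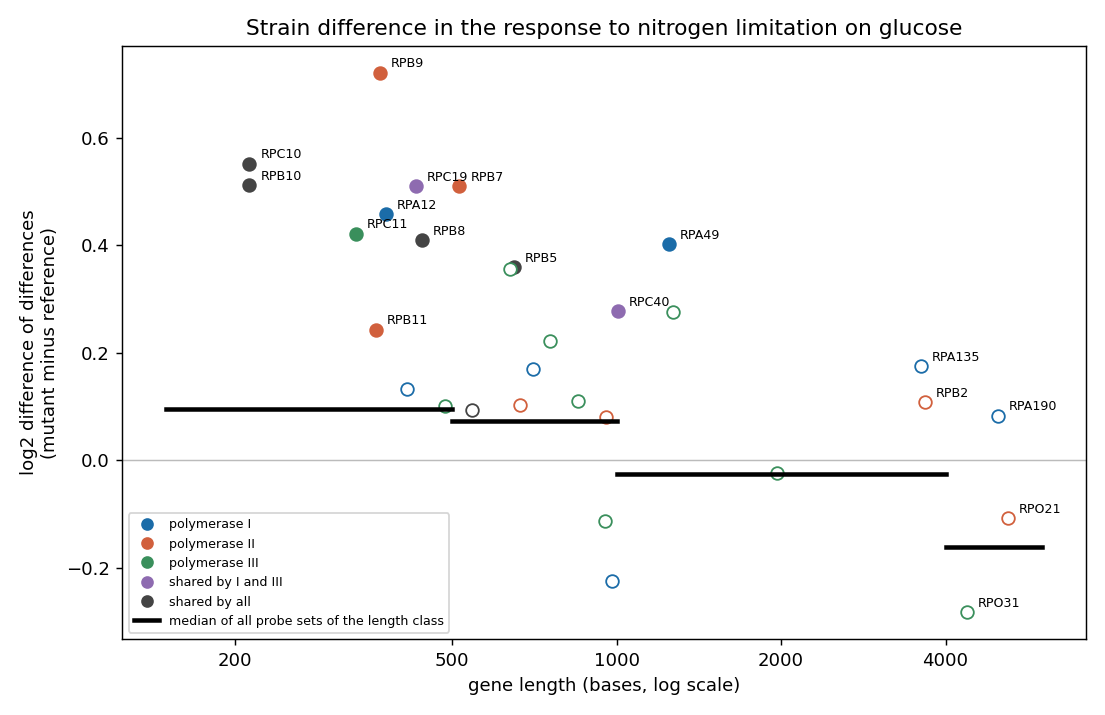
Difference between mutant and reference strain in the response to nitrogen limitation on glucose (log2, y axis) against gene length (log scale, x axis) for the 30 subunit genes, filled where called, with black lines at the median of all probe sets in each length class. Short genes such as RPB9 (0.72), RPC10 (0.55) and RPB10 (0.51) lie above the 0.10 of their length class, and RPO31 lies lowest at -0.28 without a call.

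On ethanol, nitrogen limitation was compared with ethanol limitation, and few genes responded. In the mutant 1 of the 30 genes rose and 3 fell, where 6.53% of all probe sets were higher and 7.79% lower. The gene that rose was RPB7, with 12.32 and 12.35 under nitrogen limitation against 12.21 and 12.02 under ethanol limitation (0.22 ± 0.06, adjusted p 0.0393). All 3 that fell were polymerase III genes. RPC34 had 11.27 and 11.07 under nitrogen limitation and 11.54 and 11.71 under ethanol limitation (-0.46 ± 0.11, adjusted p 0.0229). RPC25 fell by 0.32 ± 0.08 (adjusted p 0.0254) and RPC37 by 0.28 ± 0.08 (adjusted p 0.0413). RPC34 was called lower under nitrogen limitation against both carbon limitations in the mutant, but the call against glucose limitation was lost whichever of the 4 arrays was left out, and that against ethanol limitation without array 2 of either group. RPC25 and RPC37 had risen against glucose limitation. These counts were fragile. No gene was called without the ethanol-limitation array 2 or without the nitrogen-limitation array 2, 2 genes were called without the nitrogen-limitation array 1, and the split was 2 higher and 3 lower with quantile normalization and 1 and 1 with median centring. With the block for each strain 10 genes were called, as were 1826 of all probe sets in place of 818. Fitted on the 4 arrays compared alone, 0 genes were called, with 9 at an unadjusted p under 0.05.

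The reference strain had 1 gene that rose and none that fell on ethanol, also at an unadjusted p under 0.05, where 4.62% of all probe sets were higher and 3.59% lower by limma's adjusted p. The gene was RPA12, with 11.76 and 11.70 under nitrogen limitation against 11.40 and 11.38 under ethanol limitation (0.34 ± 0.06, adjusted p 0.00387), and it was called whichever of the 4 arrays was left out. In the mutant RPA12 had 11.70 and 11.71 under nitrogen limitation and 11.79 and 11.75 under ethanol limitation. The strain difference in this response was -0.40 ± 0.08 (adjusted p 0.0158). RPA12 was the only one of the 30 genes for which it was called, where 2.34% of all probe sets were called larger and 3.88% smaller. With the block for each strain 5 genes were called, as were 1037 of all probe sets in place of 356. The call of RPA12 was lost in 3 of 8 fits, without the reference ethanol-limitation array 2 or the mutant nitrogen-limitation array 2 on ethanol, where 0 genes were called, and without the reference nitrogen-limitation array 1 on ethanol, where 1 other gene was called. Without the mutant ethanol-limitation array 1, 2 genes were called.

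Whether the response to nitrogen limitation differed between the carbon sources was tested within each strain. In the mutant the difference between nitrogen and carbon limitation was smaller on ethanol than on glucose for 12 of the 30 genes and larger for none, by adjusted or unadjusted p, where 16% of all probe sets were called larger and 17.8% smaller. The 4 common subunits RPB10 (-0.74 ± 0.06, adjusted p 3.34e-06), RPB8, RPB5 and RPC10 were called, as were 3 genes each of polymerases II and III, 1 of polymerase I and RPC19. RPA12 (-0.63 ± 0.08, adjusted p 0.000157), RPC37 (-0.62 ± 0.11, adjusted p 0.00196) and RPC25 (-0.60 ± 0.11, adjusted p 0.00254) followed RPB10 in size. The reference strain had 3 genes called larger on ethanol and 1 smaller, where 14% of all probe sets were called larger and 10.5% smaller. They were RPA49 (0.67 ± 0.11, adjusted p 0.00147), RPC10 (0.27 ± 0.08, adjusted p 0.0359), RPC40 (0.26 ± 0.07, adjusted p 0.0265) and, smaller, RPB10 (-0.20 ± 0.06, adjusted p 0.0255). RPB10 was thus called smaller in both strains. In the mutant 6 genes were called without the glucose-limitation array 1, 7 genes without the ethanol-limitation array 1, 7 without the nitrogen-limitation array 2 on glucose and 7 without either nitrogen-limitation array on ethanol. For the reference strain the split was 1 larger and 2 smaller with quantile normalization. There 1 gene was called without array 1 of nitrogen limitation on glucose or of ethanol limitation, and 2 without glucose-limitation array 2 or array 1 of nitrogen limitation on ethanol. RPA12, RPB8, RPB9, RPB10, RPC25 and RPC37 in the mutant and RPA49 in the reference strain were called whichever of the 8 arrays was left out. With the block for each strain 19 genes were called in the mutant, of which RPC82 was larger on ethanol (0.20 ± 0.07, adjusted p 0.0456), and 8 in the reference strain. Over all probe sets the block gave 2695 calls in place of 1931 in the mutant and 2145 in place of 1398 in the reference strain.

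**Figure D4:**
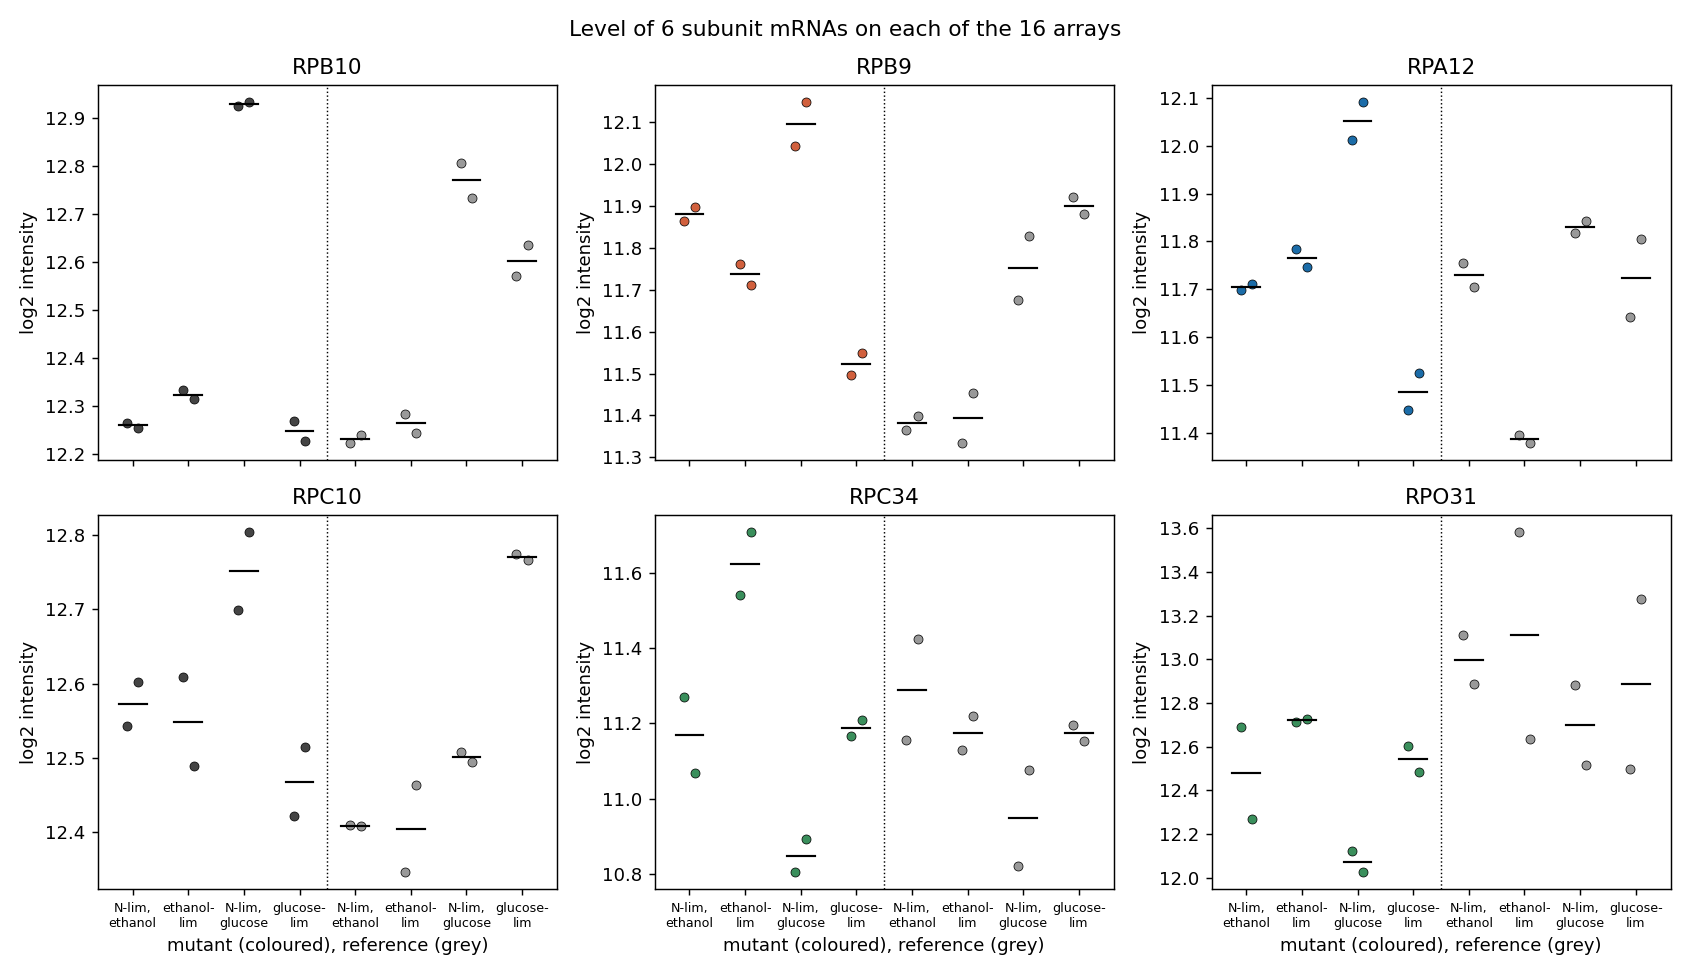
Log2 intensity of 6 subunit genes on each of the 16 arrays (points, mutant coloured and left, reference grey and right), with the mean of each group as a line. RPB10 is at 12.73 or above under nitrogen limitation on glucose and at 12.33 or below in both ethanol conditions in both strains, while the reference arrays of RPO31 lie up to 0.95 apart within a group.

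Growth on ethanol was compared with growth on glucose. Under carbon limitation the calls ran in opposite directions in the strains. The glucose-limitation arrays used here also enter the comparisons with nitrogen limitation on glucose, the strain difference in that response and the strain comparison under glucose limitation. These results are therefore not independent of each other. In the mutant 11 genes were higher on ethanol and none lower, where 16.2% of all probe sets were higher and 15.7% lower. The reference strain had 7 genes lower and none higher, where 13% of all probe sets were lower and 11.3% higher. By limma's unadjusted p under 0.05, the uncalled direction also held 0 genes in each strain. RPA12, RPB9, RPB8 and RPC40 were called in both strains with opposite signs. Of these, only RPA12 kept its call in both strains whichever array was left out. The mutant call of RPB9 and the reference call of RPB8 were lost whichever of the 4 arrays was left out. RPB9 had 11.76 and 11.71 under ethanol limitation against 11.50 and 11.55 under glucose limitation in the mutant (0.21 ± 0.06, adjusted p 0.0239), and 11.34 and 11.45 against 11.88 and 11.92 in the reference strain (-0.51 ± 0.06, adjusted p 0.000236). RPA12 had 11.79 and 11.75 under ethanol limitation against 11.45 and 11.52 under glucose limitation in the mutant (0.28 ± 0.06, adjusted p 0.00401), and 11.40 and 11.38 against 11.81 and 11.64 in the reference strain (-0.34 ± 0.06, adjusted p 0.0015). Neither gene's groups overlapped in either strain, and the difference between the strains under carbon limitation was not tested as an interaction. In the mutant the higher genes included 4 of polymerase III, namely RPC34 (0.44 ± 0.11), RPC37 (0.31 ± 0.08), RPC25 (0.31 ± 0.08) and RPC31 (0.27 ± 0.06), while no polymerase III gene was called in the reference strain, where 1 of 9 was lower at limma's unadjusted p under 0.05. RPB10 (-0.34 ± 0.04, adjusted p 0.000181), RPC10 (-0.37 ± 0.06, adjusted p 0.00127) and RPA49 (-0.43 ± 0.08, adjusted p 0.00265) were lower on ethanol in the reference strain. In the mutant 2 genes were called without the glucose-limitation array 1 and 5 without the ethanol-limitation array 2, and RPA12 was the only gene called whichever of the 4 arrays was left out. RPA12, RPA49, RPB9, RPB10 and RPC10 were called in the reference strain whichever was left out. With the block for each strain 17 genes were called in the mutant and 11 in the reference strain. Over all probe sets the block gave 2698 calls in place of 1821 in the mutant and 2194 in place of 1388 in the reference strain.

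Under nitrogen limitation RPB10 gave the largest fall on ethanol among the called genes in both strains. It had 12.27 and 12.25 on ethanol against 12.92 and 12.93 on glucose in the mutant (-0.67 ± 0.04, adjusted p 3.78e-07), and 12.22 and 12.24 against 12.81 and 12.73 in the reference strain (-0.54 ± 0.04, adjusted p 2.69e-06). In the mutant 9 genes were lower on ethanol and 2 higher, where 23% of all probe sets were lower and 19.5% higher. The reference strain had 3 lower and 3 higher, where 15.9% of all probe sets were lower and 17.7% higher. The higher genes in the mutant were RPC34 (0.32 ± 0.11, adjusted p 0.0387) and RPC31 (0.18 ± 0.06, adjusted p 0.0341), both of the polymerase III initiation trimer. Both were also called higher in the reference strain, RPC34 at 0.34 ± 0.11 (adjusted p 0.0371) and RPC31 at 0.23 ± 0.06 (adjusted p 0.0145), together with RPA49 at 0.24 ± 0.08 (adjusted p 0.0386). RPC34 overlapped in neither strain, with 11.27 and 11.07 on ethanol against 10.80 and 10.89 on glucose in the mutant, and 11.16 and 11.42 on ethanol against 10.82 and 11.08 on glucose in the reference strain. RPC82 (YPR190C), the remaining subunit of that trimer, was not called without the block, and with it was higher on ethanol in the mutant (0.31 ± 0.05, adjusted p 0.001). RPB9 and RPB7 were lower on ethanol in both strains. In the mutant 4 genes were called without the nitrogen-limitation array 2 on glucose, 4 without the array 1 on ethanol and 6 without the array 2 on ethanol. In the reference strain 3 genes were called without nitrogen-limitation array 2 on glucose or without either array on ethanol, and the split of 3 higher and 3 lower became 2 and 5 with quantile normalization and 2 and 3 with median centring. RPA12, RPB7 and RPB10 in the mutant and RPB9 and RPB10 in the reference strain were called whichever array was left out. With the block for each strain the reference strain had 10 genes called, and 2621 of all probe sets in place of 1921.

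The strains were then compared within each condition, mutant against reference. The same arrays had entered the comparisons above, so these results are not independent of them. The direction depended on the condition. In the mutant 14 genes were higher and none lower under ethanol limitation, where 12.2% of all probe sets were higher and 12.6% lower. Under glucose limitation the mutant had 8 genes lower and none higher, where 8.8% of all probe sets were lower and 9.41% higher. Under nitrogen limitation 8 genes were higher on glucose, where 9.99% of all probe sets were higher and 11.1% lower, and 3 genes on ethanol, where 5.65% of all probe sets were higher and 10.1% lower. None of the 30 was lower under either nitrogen limitation, and in all 4 conditions the uncalled direction held 0 genes at limma's unadjusted p under 0.05 as well. The block for each strain ended this for 3 of the conditions. With it RPO31 was lower in the mutant under both nitrogen limitations, by the values given above, and RPA190 was higher under glucose limitation (0.18 ± 0.04, adjusted p 0.0185).

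RPB9 was called in all 4 conditions. It had 11.86 and 11.90 in the mutant against 11.36 and 11.40 in the reference strain under nitrogen limitation on ethanol (0.50 ± 0.06, adjusted p 0.000458). Under ethanol limitation it was higher in the mutant by 0.34 ± 0.06 (adjusted p 0.00366) and under nitrogen limitation on glucose by 0.34 ± 0.06 (adjusted p 0.00306). Under glucose limitation RPB9 was lower in the mutant by 0.38 ± 0.06 (adjusted p 0.00264), the largest difference called among the 30 in that condition. RPB8 was higher in the mutant by 0.24 ± 0.04 under nitrogen limitation on ethanol, 0.28 ± 0.04 under ethanol limitation and 0.31 ± 0.04 under nitrogen limitation on glucose, and RPB7 was higher under both nitrogen limitations and lower under glucose limitation.

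Under ethanol limitation the 14 genes were spread over the enzymes, with 4 of 7 for polymerase I, 2 of 7 for polymerase II, 5 of 9 for polymerase III, RPC40 for the pair shared by I and III, and RPB5 and RPB8 for the 5 common to all. RPC34 had 11.54 and 11.71 in the mutant against 11.13 and 11.22 in the reference strain (0.45 ± 0.11, adjusted p 0.0156). RPC25 had 11.63 and 11.68 against 11.13 and 11.32 (0.43 ± 0.08, adjusted p 0.0046). RPA12 had 11.79 and 11.75 against 11.40 and 11.38 (0.38 ± 0.06, adjusted p 0.00127). No groups overlapped for these genes, as the choice of genes shown in full required. RPA34 (YJL148W), the TFIIF-like partner of RPA49, was called here and in no other comparison, with 12.37 and 12.36 in the mutant and 12.02 and 12.07 in the reference strain (0.32 ± 0.07, adjusted p 0.0102), while RPA49 was not called.

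Under glucose limitation the 8 genes lower in the mutant were RPA49 and RPA12 of polymerase I, RPB7, RPB9 and RPB11 of polymerase II, RPC19, and RPB10 and RPC10 of the common subunits. No polymerase III gene was called, and 1 of 9 was lower at limma's unadjusted p under 0.05. RPB10 had 12.27 and 12.23 in the mutant against 12.57 and 12.63 in the reference strain (-0.35 ± 0.04, adjusted p 0.000299), and RPC19 had 12.20 and 12.20 against 12.49 and 12.61 (-0.35 ± 0.07, adjusted p 0.0067). Length ran with this result too, since 6 of the 8 genes are at most 500 bases long, and 14.9% of all probe sets for genes of that length were lower against 2.66% for genes above 4000 bases. The median of the 10 short subunit genes was -0.22, against -0.06 over all probe sets of that length. Under ethanol limitation 3 of 10, 7 of 11, 3 of 6 and 1 of 3 genes were called, from the shortest to the longest class. The part of length was not tested.

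Single arrays set the size of these counts. Under ethanol limitation 6 genes were called without the reference array 1 or the mutant array 2, and 9 without either of the others. Under glucose limitation 3 were called without the reference array 2 or the mutant array 1 and 5 without the reference array 1, and under nitrogen limitation on glucose 5 were called without the mutant array 1 and 3 without the mutant array 2. RPB9 was called whichever array was left out in all 4 conditions, and RPB8 in 3 of them. So were RPA12, RPC25 and RPC40 under ethanol limitation, RPB10 under glucose limitation and RPB7 under nitrogen limitation on glucose. When the 4 arrays compared were fitted alone, limma called 0 genes under ethanol limitation and under nitrogen limitation on glucose, with 15 and 12 at an unadjusted p under 0.05, and 1 gene in each of the other conditions. With the block for each strain 13 genes were called under glucose limitation, 18 under nitrogen limitation on glucose and 9 under nitrogen limitation on ethanol. Over all probe sets the block gave 1949 calls in place of 1041, 2062 in place of 1206 and 1831 in place of 902 in these conditions.

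The enzymes were also compared as classes within each array, which cancels any scaling of an array by 1 factor. The class level was the mean over the class of each gene's log2 intensity minus its own mean over the 16 arrays. It is a description, without a test, because the classes were chosen with the values known. Under nitrogen limitation on glucose, the polymerase I subunits lay below the polymerase II subunits by 0.14 and 0.12 on the mutant arrays and by 0.18 and 0.07 on the reference arrays. The polymerase III subunits lay below the polymerase II subunits by 0.19 and 0.15 on the mutant arrays and by 0.07 and 0.09 on the reference arrays in that condition. Under ethanol limitation in the mutant both classes lay above polymerase II, by 0.20 and 0.13 for polymerase I and by 0.14 and 0.18 for polymerase III, against -0.05 and -0.03 for polymerase I and 0.03 and 0.03 for polymerase III in the reference strain. Between nitrogen and glucose limitation in the mutant, the class difference changed by -0.20 for I minus II and by -0.18 for III minus II. With the median of each class in place of the mean, these became -0.14 and -0.03. The median response of the single genes was 0.07 for polymerase I, 0.14 for polymerase II and 0.23 for polymerase III. In that order 1 of 7, 3 of 7 and 5 of 9 genes were called higher, and 1 gene of polymerase III lower. The mean takes in the largest falls in polymerases I and III, -0.41 for RPA43 and -0.47 for RPO31, and that of RPC34. In these mutant groups the paired arrays of RPO31 and RPA43 lay 0.05 to 0.16 apart. The part of these genes in the change was not tested.

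**Figure D5:**
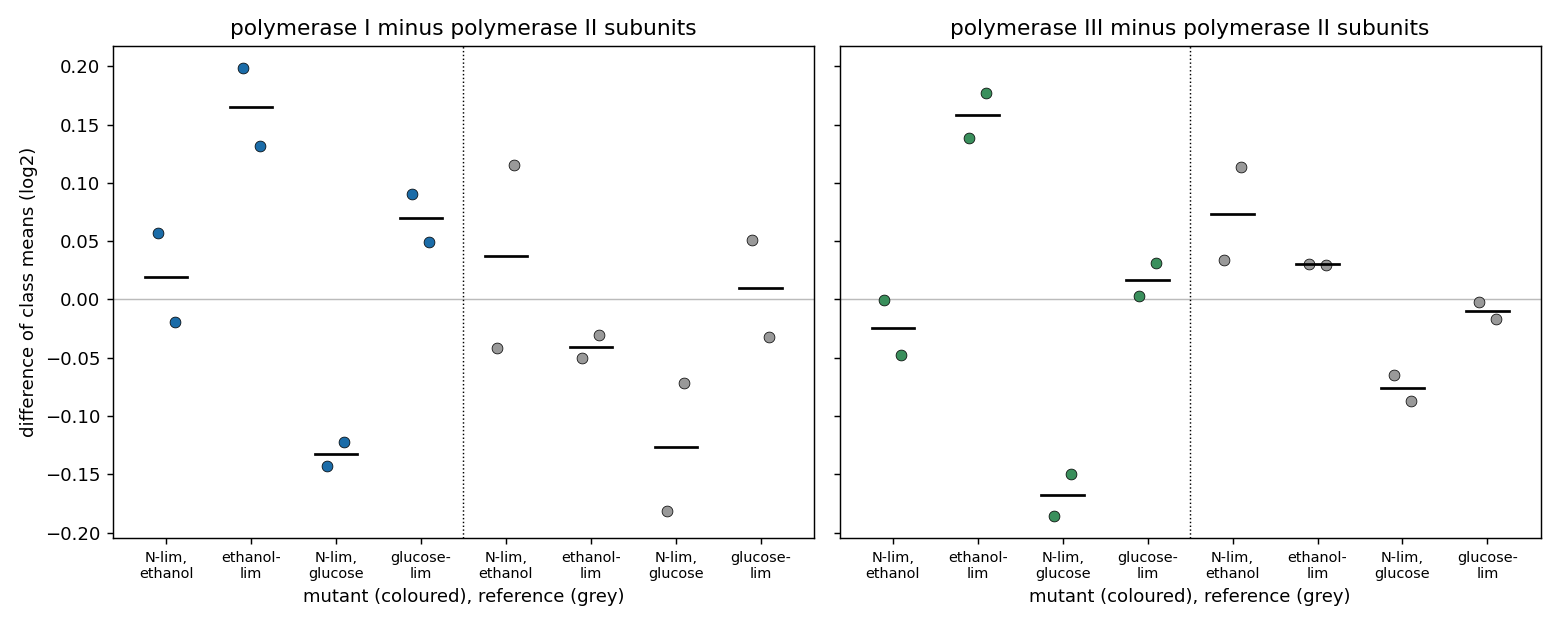
Mean level of the polymerase I subunits minus that of the polymerase II subunits (left) and of the polymerase III subunits minus that of the polymerase II subunits (right) on each array, in log2, with group means as lines (mutant coloured, reference grey). By these means, both differences are lowest under nitrogen limitation on glucose, at -0.13 and -0.17 in the mutant, and highest under ethanol limitation in the mutant, at 0.16 in both. With class medians the changes between conditions were smaller or reversed in some comparisons.

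Genes that work with the polymerases were compared in the same way for nitrogen against glucose limitation, where 25.2% of all probe sets were higher and 23.6% lower in the mutant and 21.4% were higher and 22.2% lower in the reference strain. Of 9 initiation factors of polymerase I, 6 rose in the mutant and 2 rose and 1 fell in the reference strain under nitrogen limitation against glucose limitation. RRN3, which makes polymerase I competent to initiate, rose by 0.44 in the mutant and 0.55 in the reference strain. Of 8 factors of polymerase III, 3 rose in the mutant and 4 in the reference strain, among them BRF1, a subunit of TFIIIB, by 0.49 and 0.29. Of 21 general factors of polymerase II, 6 rose in the mutant, and 4 rose and 1 fell in the reference strain. SPT15, the TATA-binding protein used by all of the polymerases, rose by 0.36 in the mutant and had an uncalled difference of 0.03 in the reference strain. On ethanol, where 6.53% of all probe sets were higher and 7.79% lower in the mutant and 4.62% higher and 3.59% lower in the reference strain, limma called no gene of these 3 factor lists, nor SPT15, between nitrogen and ethanol limitation. At an unadjusted p under 0.05, 1 factor of polymerase I was higher in the reference strain, and in the mutant 1 factor of polymerase I was higher and 2 each of polymerases I and II were lower. Of the 7 assembly factors, 1 rose and 2 fell in the mutant on glucose, and 3 rose and 1 fell in the reference strain. RPO41, the mitochondrial polymerase, and MTF1, its initiation factor, were called in the mutant with differences of -0.33 and 0.24, and neither was called in the reference strain.

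DOT6, TOD6, STB3 and SFP1 encode regulators of ribosome biogenesis genes, and MAF1 encodes the repressor of polymerase III. DOT6 rose under nitrogen against glucose limitation by 0.64 ± 0.07 in the mutant (adjusted p 4.37e-05) and by 0.63 ± 0.07 in the reference strain (adjusted p 5.93e-05). It was not called between nitrogen and ethanol limitation in either strain, and it was lower on ethanol than on glucose under nitrogen limitation, by 0.56 ± 0.07 in the mutant and 0.47 ± 0.07 in the reference strain. MAF1 lay between 11.94 and 12.17 on the 8 mutant arrays and between 12.28 and 12.49 on the 8 reference arrays, with no overlap. It was lower in the mutant by 0.48 ± 0.06 under nitrogen limitation on ethanol (adjusted p 0.000676), by 0.32 ± 0.06 under ethanol limitation (adjusted p 0.0054) and by 0.28 ± 0.06 under glucose limitation (adjusted p 0.0116), with an uncalled difference of -0.16 ± 0.06 under nitrogen limitation on glucose (adjusted p 0.0878). SFP1 was not called between the strains in any condition, with differences of 0.16 or less in size, and rose under nitrogen against glucose limitation in the reference strain by 0.20. TOD6 was called nowhere. STB3 was called nowhere either, and in the reference strain its paired arrays differed by 1.07 to 1.71, again with the array described as 01 higher in all 4 groups.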

How the data were processed

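The 16 arrays were summarized by the authors into background-corrected intensities, 1 linear value per probe set and array, with a lowest value of 1 that 5 values had. GCRMA is the tool that the submitters' processing notes name, without a version, and none of the sources used here gives a genome build. The deposited intensities were taken to log2 without an offset and not scaled again. No column was left unused. Symbols came from the platform annotation, in which 5498 of 5716 probe sets carry 1 gene symbol and 218 none, with 12 symbols updated through the RefSeq table of assembly R64. Each of the 30 genes has 1 probe set, so the rule of the brightest probe set made no choice. Levels of different probe sets were not compared, and for arrays the number of arrays limits the precision.

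With limma 3.58.1 (R 4.3.3), 1 linear model of the 8 groups took in every array, with 8 residual and 2.01 prior degrees of freedom. The 12 pairwise comparisons and 4 interactions were tested two-sided, with Benjamini-Hochberg adjustment over all 5716 probe sets and a threshold of 0.05. The method was tested on simulated data. The members and the other gene lists were chosen with earlier results of these data known. All members could be named, and full statistics were given for at most 3 per class and comparison, those with the largest called difference and no overlap. DUR1,2, a further marker of nitrogen limitation, was not matched. A search for promoter motifs was planned and not run. Alternatives covered scaling, dim probe sets, arrays in the fit, replicate blocks, the variance trend, a minimum difference of 0.5 and leaving out each array.

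The title and the description number the glucose-limited reference arrays in opposite ways, and the title's numbers were used. Numbers were checked as pairs by correlating replicate differences between groups. By the title's numbers, 11 of 28 pairs of groups had a correlation over 0.1 and 11 under -0.1 (range -0.68 to 0.66). The title's numbers were therefore not taken to pair the samples, and the main fit held no pairing. By the description's numbers, all 6 pairs of reference groups had correlations of 0.35 to 0.68. In the mutant 5 of 6 pairs were over 0.1 by either numbering. The replicate block for each strain by description takes in this pairing within strains.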

Additional observations from a re-analysis of the deposited data

Results flagged for a closer look

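The response to nitrogen limitation differed between strains or between carbon sources for several subunit genes by limma's interaction test. Each value below is a difference of log2 differences. On glucose, the response of the mutant minus that of the reference strain was 0.72 for RPB9, 0.46 for RPA12 and 0.42 for RPC11, the zinc-ribbon subunits. It was 0.55 for RPC10, 0.51 for RPB10, 0.41 for RPB8 and 0.36 for RPB5 among the subunits common to all of the polymerases. RPC19 at 0.51 and RPC40 at 0.28 form the pair shared by polymerases I and III. The stalk subunit RPB7 had 0.51, RPA49 had 0.40 and RPB11 had 0.24. On ethanol the same difference was -0.40 for RPA12 and was called for no other subunit gene.

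In the mutant, the response on ethanol minus that on glucose was -0.74 for RPB10, -0.39 for RPB8, -0.35 for RPB5 and -0.26 for RPC10 among the common subunits. For polymerase III it was -0.62 for RPC37, -0.60 for RPC25 and -0.49 for RPC17. For polymerase II it was -0.43 for RPB9, -0.30 for RPB7 and -0.28 for RPB3, with -0.63 for RPA12 of polymerase I and -0.34 for RPC19. In the reference strain the difference between carbon sources was 0.67 for RPA49, 0.27 for RPC10, 0.26 for RPC40 and -0.20 for RPB10. RPC10 and RPB10 were called in both strains, RPC10 with opposite signs. With 2 arrays in each group, no single array could be tested as an outlier.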

How the results depend on the processing

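The number of subunit genes called depended on which arrays set the spread. Paired arrays lay further apart in the reference strain than in the mutant. Their median absolute difference over all probe sets was 0.09 to 0.11 in the reference groups and 0.05 to 0.08 in the mutant groups. The main fit nevertheless used 1 spread per probe set for both strains. Fitted on the compared arrays alone, the count for nitrogen against glucose limitation in the reference strain was 2 in place of 8, and for nitrogen against ethanol limitation it was 0 in place of 4 in the mutant and 0 in place of 1 in the reference strain. For ethanol against glucose in the reference strain it was 2 in place of 7 under carbon limitation and 1 in place of 6 under nitrogen limitation. For mutant against reference it was 1 in place of 8 under glucose limitation, 0 in place of 8 under nitrogen limitation on glucose, 0 in place of 14 under ethanol limitation and 1 in place of 3 under nitrogen limitation on ethanol, and for the comparison of carbon sources in the reference response it was 1 in place of 4. The counts of 0 had 9, 1, 12 and 15 genes at an unadjusted p under 0.05, in the order given. The other counts stayed within 1.5 times, with 18 in place of 14 for nitrogen against glucose limitation in the mutant. Such fits have fewer arrays and so fewer residual degrees of freedom. Their counts over all probe sets are not given here, so whether the falls are particular to the subunit genes is not known.

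A required log2 difference of 0.5 lowered every count by construction. For nitrogen against glucose limitation it left 4 genes in the mutant and 1 in the reference strain, and 0 in both against ethanol limitation. For ethanol against glucose under carbon limitation it left 0 in the mutant and 1 in the reference strain, and 1 in each under nitrogen limitation. For mutant against reference it left 0 in all 4 conditions. For the interactions it left 4 for carbon source in the mutant, 1 for carbon source in the reference strain, 5 for strain on glucose and 0 for strain on ethanol. Median centring gave 2 in place of 4 for nitrogen against ethanol limitation in the mutant, 9 in place of 14 for the strains under ethanol limitation and 7 in place of 12 for carbon source in the mutant response. Quantile normalization gave 5 in place of 8 for the strains under glucose limitation. Leaving out the dimmest 0.25 of probe sets, nitrogen against ethanol limitation in the mutant gave 2. The intensity trend kept every count within 1.5 times. The cause was not tested.

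A replicate block by the title's numbers moved no count by more than 1.5 times, giving for example 9 in place of 8 for nitrogen against glucose limitation in the reference strain. A block by the description's numbers gave 3 in place of 1 for strain on ethanol, and 456 in place of 356 over all probe sets. The block for each strain by description, chosen after seeing the data, raised counts for the subunit genes and over all probe sets in every comparison. For nitrogen against glucose limitation in the reference strain it gave 13 in place of 8, and 3135 in place of 2494 over all probe sets. For nitrogen against ethanol limitation in the mutant it gave 10 in place of 4, and 1826 in place of 818 over all probe sets. For ethanol against glucose it gave 17 in the mutant under carbon limitation, and 11 and 10 in the reference strain under carbon and nitrogen limitation. For mutant against reference it gave 13 under glucose limitation, 18 under nitrogen limitation on glucose and 9 under nitrogen limitation on ethanol. It gave 19 and 8 for carbon source in the mutant and reference responses and 5 for strain on ethanol. In the reference strain replicate differences correlated at 0.35 to 0.68 for all 6 pairs of groups by description, and for the mutant at 0.02 to 0.29.

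Leaving out 1 array at a time gave these ranges. Nitrogen against glucose limitation had 7 to 13 genes in the mutant and 6 to 9 in the reference strain, and nitrogen against ethanol limitation had 0 to 3 and 1 to 1. Ethanol against glucose had 2 to 10 and 5 to 7 under carbon limitation and 4 to 8 and 3 to 4 under nitrogen limitation. Mutant against reference had 3 to 6 under glucose limitation, 3 to 6 under nitrogen limitation on glucose, 6 to 9 under ethanol limitation and 2 to 3 under nitrogen limitation on ethanol. Carbon source had 6 to 13 in the mutant and 1 to 4 in the reference strain, and strain had 7 to 10 on glucose and 0 to 2 on ethanol. A lone array was taken to vary like the other groups.

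Class differences were sensitive to using the median over a class. For III minus II it gave -0.031 in place of -0.18 for nitrogen against glucose limitation in the mutant and -0.012 in place of -0.07 in the reference strain. For I minus II it gave -0.14 in the mutant. For ethanol against glucose under carbon limitation it gave 0.031 and 0.092 (I and III minus II) in place of 0.10 and 0.14 in the mutant, and 0.0015 and 0.020 in place of -0.05 and 0.04 in the reference strain. Under nitrogen limitation it gave 0.0052 and -0.056 in place of 0.15 and 0.14 in the mutant, and 0.10 for III minus II in the reference strain. For mutant against reference it gave 0.14 and 0.11 in place of 0.06 and 0.03 under glucose limitation, 0.077 and 0.088 in place of -0.006 and -0.09 under nitrogen limitation on glucose, and 0.17 and 0.18 in place of 0.21 and 0.13 under ethanol limitation. Quantile normalization turned III minus II for mutant against reference under glucose limitation to -0.0067, and gave -0.12 under nitrogen limitation on glucose, 0.077 under ethanol limitation and -0.15 for nitrogen against ethanol limitation in the mutant.

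For single genes over the 12 pairwise comparisons, no called difference changed direction under either scaling. Quantile normalization added 12 calls, lost 10 and left 338 results on their side of the threshold, and median centring added 5, lost 15 and left 340. Each subunit gene has 1 probe set, so averaging probe sets gives the same values. With 2 arrays in each group, differences near the pooled spread could not be resolved.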
